A study of Mus musculus with 24 samples.

Results

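The genes described here are 7 cell surface receptors of retroperitoneal fat: the natriuretic peptide receptors Npr1, Npr2 and Npr3, the beta adrenergic receptors Adrb1 and Adrb3, the alpha-2A adrenergic receptor Adra2a and the dopamine receptor Drd1. They were found by symbol among the 56895 entries of the deposited tables, and all 7 were present. They were listed with earlier results of these data known: Npr3 and Drd1 stood out in the comparison of VDD LF with VDD HF males, so what they show there is a description and carries no test. RNA-seq was done on retroperitoneal white adipose tissue of 24 C57BL/6J offspring, 3 mice in each of 8 groups. Mothers received a diet with 1.0 IU (CTRL) or 0.0 IU (VDD, vitamin D deficient) of vitamin D3 per g, which began at least 8 weeks ahead of mating and went on through gestation. After birth all received the control diet. From 6 weeks of age male and female offspring received for 8 weeks a low fat (LF) diet or a high fat (HF) diet with 45% of its energy from fat. All were killed after an overnight fast, and no genotype was altered. The groups are thus CTRL LF, CTRL HF, VDD LF and VDD HF, each in males and in females. The sources used here do not name litters, so mice of a group may come from the same mother.

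Fat cells store triglycerides and release them by lipolysis, which hormones switch on through receptors at the cell surface. Natriuretic peptides made by the heart bind the receptor encoded by Npr1, an enzyme that makes cGMP; Npr2 encodes the sister enzyme for C-type natriuretic peptide, and Npr3 encodes the receptor that takes natriuretic peptides up and clears them. Noradrenaline acts on beta receptors, which raise cAMP and promote lipolysis, and on alpha-2 receptors, which lower cAMP and restrain it. In mouse fat cells Adrb3 is the characteristic beta receptor. Drd1 encodes a dopamine receptor coupled to cAMP production that is best known from the brain.

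Positions are those of GENCODE M21 on mm10, the build named in the submitters' processing notes. Npr3 lies at chr15:11839896-11907287 on the minus strand, Npr1 at chr3:90450591-90465866 (minus), Npr2 at chr4:43631935-43651244 (plus), Adrb1 at chr19:56722199-56733113 (plus), Adrb3 at chr8:27225776-27250616 (minus), Adra2a at chr19:54044151-54048982 (plus) and Drd1 at chr13:54051183-54055705 (minus). RefSeq promoter windows on GRCm38.p6 were matched for 6 of the 7 genes, all but Adrb3. Those of Npr3 and Drd1 are shown because these receptors had the widest range between mice, and that of Npr1 because it encodes the signalling receptor beside Npr3 and varied little. Each is written 5′ to 3′ on the gene's own strand and ends before the annotated start of the gene, with the letters TGACG, the half-site of the cAMP response element, in capitals. The windows are chr15:11907372-11907621 for Npr3, chr13:54055706-54055908 for Drd1 and chr3:90465867-90466116 for Npr1.
Npr3: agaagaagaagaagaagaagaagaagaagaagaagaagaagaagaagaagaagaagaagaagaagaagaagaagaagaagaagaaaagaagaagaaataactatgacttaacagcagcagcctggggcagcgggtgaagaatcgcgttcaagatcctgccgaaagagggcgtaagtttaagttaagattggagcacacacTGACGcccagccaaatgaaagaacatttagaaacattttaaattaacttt
Drd1: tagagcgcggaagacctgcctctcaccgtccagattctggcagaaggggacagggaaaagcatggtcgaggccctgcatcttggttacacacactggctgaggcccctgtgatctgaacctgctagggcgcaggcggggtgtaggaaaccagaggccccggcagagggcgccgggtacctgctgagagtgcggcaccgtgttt
Npr1: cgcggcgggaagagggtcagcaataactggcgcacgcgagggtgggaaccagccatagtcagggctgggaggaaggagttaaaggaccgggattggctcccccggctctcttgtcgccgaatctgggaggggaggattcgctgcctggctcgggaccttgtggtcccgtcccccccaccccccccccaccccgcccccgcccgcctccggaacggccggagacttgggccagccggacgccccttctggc
The 250 bases of the Npr3 window held 1 half-site, beginning 50 bases before the end of the window. Both strands were searched for 5 motifs. The half-site TGACG was present in 17.86% of 27025 mouse promoters of that length. The full element TGACGTCA, which contains the half-site, was present in 1.62%. The nuclear receptor half-site AGGTCA was present in 13.84%. The box TATAAA was present in 12.97%, and the E-box CACGTG was present in 6.05%. The windows of Npr1 and Drd1 held none of the 5, and that of Npr3 only the first. The Npr3 window was poor in G and C (38.8%), and those of Npr1 (70.4%) and Drd1 (64.0% over 250 bases) were rich, beside a median of 52.4% over 32851 start sites. These matches describe letters only and say nothing of binding.

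The libraries held 13346779 to 18484346 reads on genes (median 15933506). The adipocyte gene Adipoq had 44740 to 109716 normalized reads in every library, and Plin1, which coats fat droplets, 9362 to 30585. Libraries are named by group and mouse number. The sum of 12 skeletal muscle markers (highest gene Myh4) ran from 151 to 1297573 normalized reads and was highest in VDD LF male 2310. The sum of 12 kidney markers (highest Lrp2) was 7.69 to 787 in 23 libraries and 10725 in VDD LF female 2303, where Umod had 1937 normalized reads against 0 in 18 libraries. Within the lower range CTRL HF females (542 to 787) stood above CTRL LF females (124 to 278) without overlap. Only 3 of the 12 markers reached 10 normalized reads in 3 or more libraries of these groups. Over all libraries Slc12a1 and Slc34a1 were at 0 in 21 and 17, whereas Lrp2 was at least 7.69 in each. The sum of 12 adrenal markers (highest Hsd3b1) was 403 to 2181 in 21 libraries and 10405, 33115 and 19179 in CTRL HF females 2290 and 2292 and VDD HF female 2121. Of that list Cyp11b1, Th, Dbh and Pnmt had at most 11.9, 10.8, 3.99 and 10.5 normalized reads, whereas Star reached 1424, in CTRL HF female 2292. The sum thus rests on part of the list and does not by itself show adrenal tissue. A further 6 libraries carry the word renal in their column name, 1 in each male group, 1 in CTRL LF females and 1 in VDD LF females. The sources used here do not say what it stands for. Differences that include VDD LF male 2310 or VDD LF female 2303 are also given without them, beside the result or together after the last receptor. In such tissue samples fewer cells of a type and less RNA per cell cannot be told apart.

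Levels are normalized reads, scaled over the 24 libraries by the median of ratios, and levels of different genes are compared only per kb of exon. On that scale Adrb3 was the most abundant of the 7 receptors, with a median of 3237 normalized reads per kb. Npr3 followed with 455, then Npr1 with 358, Npr2 with 309, Adrb1 with 17.7, Drd1 with 8.62 and Adra2a with 1.80. The 3 genes with the widest range between libraries were Drd1 (86.9-fold from lowest to highest), Npr3 (16.0-fold) and Adrb1 (13.8-fold). Adra2a varied 6.60-fold, Npr1 2.64-fold, Adrb3 2.47-fold and Npr2 1.94-fold.

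Npr3, the clearance receptor, had the highest mean in HF males of both maternal diets. CTRL LF males had 7832, 5550 and 4365 normalized reads of Npr3 (5915 ± 1762, SD, n = 3), and CTRL HF males 9775, 19322 and 11428 (13508 ± 5103, n = 3). VDD LF males had 1358, 2389 and 1383 (1710 ± 588, n = 3), and VDD HF males 20038, 17460 and 19918 (19139 ± 1455, n = 3). Every HF male library stood above every LF male library. In females, CTRL LF mice had 2547, 1629 and 2689 normalized reads (2289 ± 575, n = 3) and CTRL HF mice 8839, 11307 and 4269 (8138 ± 3571, n = 3), again with no overlap. VDD LF females had 2924, 1249 and 1476 (1883 ± 909, n = 3) and VDD HF females 4278, 3321 and 2033 (3211 ± 1127, n = 3), which overlapped. In the order of the group means VDD HF males, CTRL HF males, CTRL HF females and CTRL LF males each overlapped the next. CTRL LF males and VDD HF females did not overlap, and the 4 lowest groups, VDD HF females, CTRL LF females, VDD LF females and VDD LF males, each overlapped the next.

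Next, Npr3 was compared between offspring diets. Differences are HF minus LF on the log2(normalized reads + 1) scale, fitted with limma over all genes of each table, and calls needed an adjusted p (Benjamini-Hochberg) below 0.01 and a fold change above 1.5 or below 0.66. In VDD males the difference was 3.53 (SE 0.25), the values by which Npr3 was picked. In CTRL males it was 1.16 (SE 0.31), larger than the spread between mice but short of the threshold (limma, adjusted p = 0.106). In CTRL females it was 1.73 (SE 0.37, limma adjusted p = 0.0378), and in VDD females 0.81 (SE 0.40, limma adjusted p = 0.837). Without VDD LF female 2303, the library with kidney transcripts and the highest Npr3 of its group, the last difference was 1.18.

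**Figure D1:**
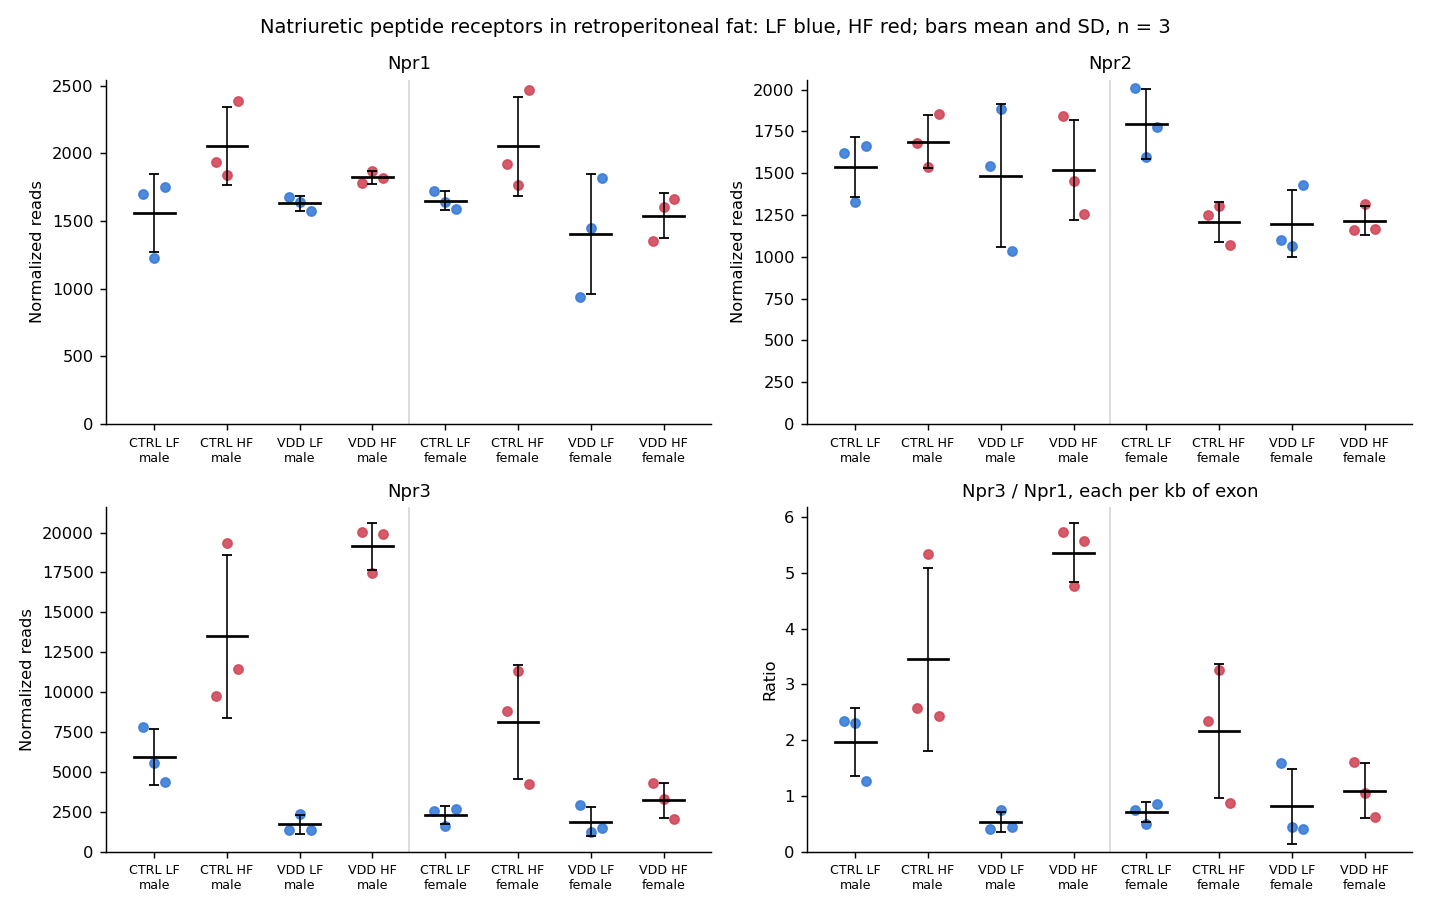
Normalized reads of Npr1, Npr2 and Npr3 and the ratio of Npr3 to Npr1 (each per kb of exon) on the y axes, for the 8 groups on the x axes, with 1 point per mouse, LF in blue and HF in red, and bars for mean and SD (n = 3). Npr3 ran from 1358 to 2389 in VDD LF males and from 17460 to 20038 in VDD HF males, while Npr1 ran from 936 to 2467 over all 24 mice.

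Between maternal diets, mean Npr3 was lower with VDD in LF males and in HF females. VDD minus CTRL, the difference was -1.79 (SE 0.30) in LF males, where the groups did not overlap, and -1.66 without the muscle-rich library 2310. It was 0.55 (SE 0.28) in HF males, with overlap. These values use the VDD males from which Npr3 was picked, so no p is given. In HF females the difference was -1.28 (SE 0.42, limma adjusted p = 0.219), with overlap between 4278 in the highest VDD HF mouse and 4269 in the lowest CTRL HF mouse. In LF females it was -0.35 (SE 0.34, limma adjusted p = 0.653), and -0.72 without 2303. The HF minus LF difference was larger in VDD than in CTRL males by 2.36 (SE 0.43), a value given without a test. In females it was smaller in VDD by 0.94 on the log2 scale, written as -0.94 (SE 0.59, limma adjusted p = 0.692).

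Between sexes, Npr3 stood apart in CTRL LF mice. Female minus male, the difference was -1.36 (SE 0.26), with no overlap between groups and a limma adjusted p of 0.0311, above the threshold of 0.01. On CTRL HF it was -0.78 (SE 0.40, limma adjusted p = 0.339), and in VDD LF mice 0.09 (SE 0.37). The last value turned to -0.28 without the kidney-rich female 2303 and to -0.04 without the muscle-rich male 2310. In VDD HF mice it was -2.64 (SE 0.28), with all 3 males at 17460 or more and all 3 females at 4278 or less. The HF minus LF difference itself did not differ detectably between CTRL females and CTRL males (0.58, SE 0.52, limma adjusted p = 0.828).

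Per kb of exon, Npr3 was 17.5% to 76.6% of the 3 natriuretic peptide receptors. Its share was 21.4% ± 3.96 (SD, n = 3) in VDD LF males and 74.2% ± 2.07 (n = 3) in VDD HF males. It was 48.6% ± 8.18 in CTRL LF males, 63.2% ± 9.59 in CTRL HF males, 24.8% ± 4.28 in CTRL LF females and 53.8% ± 14.1 in CTRL HF females (n = 3 each). VDD LF females were at 26.9% on average, from 18.6% to 41.9%, and VDD HF females at 36.4% ± 9.79 (n = 3 each). The ratio of Npr3 to Npr1 per kb, clearance receptor over signalling receptor, was 0.413, 0.742 and 0.448 in VDD LF males and 5.74, 4.76 and 5.58 in VDD HF males. It was 2.35, 2.30 and 1.27 in CTRL LF males and 2.57, 5.34 and 2.44 in CTRL HF males. The female ratios were 0.753, 0.506 and 0.864 in CTRL LF, 2.34, 3.26 and 0.882 in CTRL HF, 1.59, 0.440 and 0.413 in VDD LF, and 1.61, 1.05 and 0.623 in VDD HF mice. HF groups thus stood above LF groups without overlap in males of both maternal diets and in CTRL females.

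Npr1, the cGMP-making receptor, had much smaller differences. Its means were 1559 ± 286 in CTRL LF males, 2055 ± 290.5 in CTRL HF males, 1629 ± 52.3 in VDD LF males and 1821 ± 46.0 in VDD HF males (SD, n = 3 each). In females they were 1650 ± 69.4, 2052 ± 367, 1401 ± 444 and 1540 ± 166 in the same order of groups. HF minus LF, Npr1 was 0.40 (SE 0.20, limma adjusted p = 0.306) in CTRL males, 0.28 (SE 0.14, limma adjusted p = 0.234) in CTRL females and 0.18 (SE 0.25, limma adjusted p = 0.908) in VDD females. In VDD males, where no test is given, it was 0.16 (SE 0.10). The groups did not overlap in CTRL males, VDD males and CTRL females. The lowest of the 24 values, 936, was in VDD LF female 2303, and without it the VDD female difference was -0.08. VDD minus CTRL, Npr1 was -0.39 (SE 0.17, limma adjusted p = 0.31) in HF females, with no overlap, and between -0.29 and 0.09 in the other 3 comparisons.

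Npr2, the receptor for C-type natriuretic peptide, was higher in CTRL LF females than in the other females. CTRL LF females had 2008, 1596 and 1777 normalized reads (1794 ± 206, SD, n = 3). CTRL HF females had 1252, 1302 and 1071 (1208 ± 121, n = 3), VDD LF females 1102, 1064 and 1429 (1198 ± 201, n = 3) and VDD HF females 1162, 1314 and 1169 (1215 ± 85.7, n = 3). All 3 CTRL LF females were above all 9 other females. The difference was -0.59 (SE 0.13, limma adjusted p = 0.0414) for HF minus LF in CTRL females and -0.59 (SE 0.16, limma adjusted p = 0.391) for VDD minus CTRL in LF females. These comparisons share the CTRL LF females. The maternal by offspring diet term in females was 0.60 (SE 0.20, limma adjusted p = 0.601). Between sexes, CTRL HF females had less Npr2 than CTRL HF males without overlap, with a difference of -0.48 (SE 0.15, limma adjusted p = 0.108), whereas CTRL LF females overlapped the males of both CTRL groups. Group means in males lay between 1486 and 1689, and every HF minus LF or VDD minus CTRL difference in males lay within 0.18 of 0. The HF minus LF difference was lower in CTRL females than in CTRL males by 0.71 on the log2 scale, -0.71 (SE 0.20, limma adjusted p = 0.614).

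Drd1, the dopamine receptor, had lower means on HF than on LF in all 4 pairs of groups, opposite to Npr3. CTRL LF males had 59.6, 84.8 and 103 normalized reads (82.4 ± 21.6, SD, n = 3) and CTRL HF males 20.2, 26.3 and 49.1 (31.9 ± 15.3, n = 3). VDD LF males had 168, 178 and 144 (163 ± 17.6, n = 3) and VDD HF males 15.0, 11.9 and 9.52 (12.1 ± 2.73, n = 3). Neither pair of groups overlapped, and the 3 VDD LF males held the 3 highest of the 24 values. CTRL LF females had 20, 59.7 and 111 (63.5 ± 45.5, n = 3) and CTRL HF females 2.05, 7.66 and 4.97 (4.90 ± 2.81, n = 3), again without overlap. VDD LF females had 46.4, 23.5 and 42.3 (37.4 ± 12.2, n = 3) and VDD HF females 24.4, 36.3 and 6.18 (22.3 ± 15.2, n = 3), which overlapped. The lowest library held 3 reads of Drd1 before scaling, so folds against CTRL HF females rest on few reads.

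HF minus LF, Drd1 was -3.66 (SE 0.27) in VDD males, the values by which it was picked. It was -1.42 (SE 0.37, limma adjusted p = 0.0996) in CTRL males, -3.32 (SE 0.67, limma adjusted p = 0.0355) in CTRL females and -0.95 (SE 0.66, limma adjusted p = 0.846) in VDD females. The last value was -1.44 to -0.25 with each library left out in turn. It was -0.25 without VDD HF female 2121, the library of that group with the highest sum of the adrenal list. VDD minus CTRL, it was 1.02 (SE 0.27) in LF males and -1.27 (SE 0.40) in HF males. Neither pair overlapped, and no p is given, since the VDD males chose the gene. The maternal by offspring diet term was -2.25 (SE 0.48, no test) in males and 2.31 (SE 1.02, limma adjusted p = 0.635) in females. VDD minus CTRL was -0.50 (SE 0.60, limma adjusted p = 0.716) in LF females. In HF females Drd1 did not reach the filter (10 or more normalized reads in 3 or more libraries) and was not tested. In the CTRL female comparison above it passed only through the LF mice, since all 3 CTRL HF mice were below 10 normalized reads. The filter thus set the direction there, and that p is no support.

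By sex, Drd1 was lower in females of the CTRL HF group, by -2.51 (SE 0.52, limma adjusted p = 0.0319), and of the VDD LF group, by -2.15 (SE 0.33, no p), without overlap in either. In the CTRL HF group it passed the filter only through the males, so the filter set the direction and that p is no support. In CTRL LF mice the difference was -0.64 (SE 0.55, limma adjusted p = 0.582) and in VDD HF mice 0.55 (SE 0.65, no p). Ordered by mean, VDD LF males stood clear of CTRL LF males, and VDD HF males stood clear of CTRL HF females at the bottom. Each of the neighbours between them overlapped. Of the related receptors Drd2, Drd3, Drd4 and Drd5, each was at 0 in 20 to 23 of the 24 libraries, with at most 8.29 normalized reads (Drd4).

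**Figure D2:**
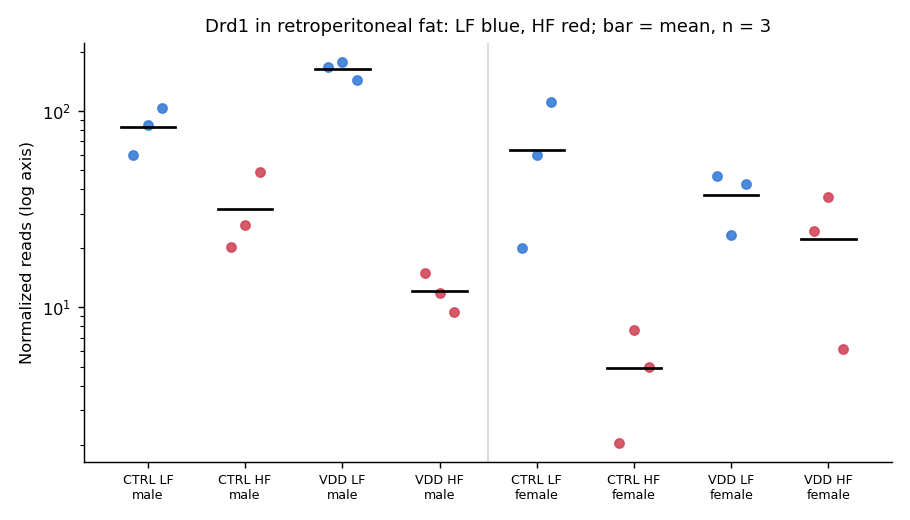
Normalized reads of Drd1 on a log y axis for the 8 groups on the x axis, 1 point per mouse with a bar for the group mean (n = 3), LF in blue and HF in red. VDD LF males sit between 144 and 178 and VDD HF males between 9.52 and 15.0, and CTRL HF females are lowest at 2.05 to 7.66.

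Cell markers also differed with diet. The sum of 8 stromal progenitor markers (highest Col15a1) was 8734 to 10691 normalized reads in CTRL LF and 16248 to 18084 in CTRL HF males, 3845 to 10193 in VDD LF and 13880 to 19915 in VDD HF males, and 7076 to 9682 in CTRL LF and 14933 to 20511 in CTRL HF females. None of these pairs overlapped, as for Npr3. In VDD females it was 5791 to 6998 on LF and 5281 to 11436 on HF. The sum of 12 endothelial and mural cell markers (highest Acta2) was 13656 to 20819 in CTRL LF and 27205 to 29533 in CTRL HF males, 9470 to 17933 in VDD LF and 18094 to 27078 in VDD HF males, and overlapped in both female pairs. The sum of 10 macrophage markers (highest Lyz2) did not overlap in CTRL females, at 6693 to 9471 on LF and 14015 to 16665 on HF. The 12 brown adipocyte markers (highest Ucp1) summed to 847 to 2877 in CTRL LF and 440.2 to 814 in CTRL HF males, 4053 to 7504 in VDD LF and 1168 to 3364 in VDD HF males, and 1483 to 11000 in CTRL LF and 511 to 1306 in CTRL HF females, so that these pairs did not overlap, as for Drd1. In VDD females they summed to 2441 to 11077 on LF and 3313 to 40152 on HF, which overlapped. The sum of 12 white adipocyte markers (highest Fabp4) was 643510 to 770256 in CTRL LF and 487683 to 519076 in CTRL HF females and overlapped in both male pairs. The part of these cells in the receptor differences was not tested.

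The sum of 8 mesothelial markers (highest Upk3b) was 286 to 15354, and in CTRL females it was 4423 to 6277 on LF and 7817 to 15354 on HF. CTRL HF females also had higher sums of the kidney list and, in 2290 and 2292, of the adrenal list. With each library left out in turn, HF minus LF in CTRL females was 1.43 to 2.14 for Npr3 and -0.67 to -0.50 for Npr2. For Drd1 it was -3.67 to -2.89 without each HF library in turn. The part of the transcripts in these sums was not tested. In VDD males the muscle sums were 254, 59584 and 1297573 on LF and 269269, 424673 and 1677 on HF. With the mean log2 level of the muscle markers as a covariate the VDD male differences were 3.53 for Npr3 and -3.67 for Drd1. Without VDD LF male 2310 they were 3.40 and -3.76.

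Adrb3, the characteristic beta receptor of mouse fat cells, overlapped between LF and HF groups in both sexes and with both maternal diets. Group means ran from 9292 ± 3041 in CTRL LF males to 12685 ± 1835 in VDD HF males (SD, n = 3 each), and every group overlapped the next in the order of means. Its 15 differences (8 of diets, 4 of sexes and 3 interaction terms) lay between -0.20 and 0.42, and all 15 of their 95% intervals held 0. For HF minus LF these intervals were -0.19 to 1.03 in CTRL males, -0.26 to 0.68 in CTRL females and -0.41 to 1.01 in VDD females. A doubling thus lay outside the interval in CTRL females and inside it in CTRL males and in VDD females.

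Adrb1, the beta receptor best known from the heart, had far lower levels per kb of exon than Adrb3, with a median of 17.7 against 3237 normalized reads. CTRL LF males had 108, 91.0 and 322 normalized reads (174 ± 129, SD, n = 3) and CTRL HF males 111, 67.9 and 43.8 (74.2 ± 34.0, n = 3). VDD LF males had 73.0, 64.4 and 23.4 (53.6 ± 26.5, n = 3) and VDD HF males 105, 125 and 144 (125 ± 19.9, n = 3). The CTRL groups overlapped and the VDD groups did not. Female means were 36.0 ± 8.66 in CTRL LF, 39.8 ± 6.74 in CTRL HF, 43.5 ± 10.1 in VDD LF and 80.4 ± 30.2 in VDD HF mice (n = 3 each).

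HF minus LF, Adrb1 was -1.09 (SE 0.49, limma adjusted p = 0.266) in CTRL males and -0.53 without CTRL LF male 2296. It was 1.34 (SE 0.46) in VDD males, where no test is given. In females it was 0.14 (SE 0.27, limma adjusted p = 0.776) with CTRL and 0.82 (SE 0.37, limma adjusted p = 0.837) with VDD mothers. The maternal by offspring diet term in males was 2.42 (SE 0.76, no test), and 0.66 (SE 0.46, limma adjusted p = 0.717) in females. The highest value, 322 in CTRL LF male 2296, and the lowest, 23.4 in VDD LF male 2310, both fed this term. Leaving out any 1 of the 12 male libraries gave terms of 1.86 to 2.76. Without 2310 the VDD male difference was 0.83, down from 1.34. VDD minus CTRL, Adrb1 was -1.58 (SE 0.61, limma adjusted p = 0.691) in LF males and -1.08 without 2310. It was 0.81 (SE 0.34, limma adjusted p = 0.94) in HF males, 0.95 (SE 0.35, limma adjusted p = 0.255) in HF females and 0.27 (SE 0.30, limma adjusted p = 0.684) in LF females. LF males and HF females did not overlap between maternal diets. Females of the CTRL LF group had less Adrb1 than males, with a difference of -2.03 (SE 0.46, limma adjusted p = 0.0516) and no overlap.

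Adra2a, the receptor that lowers cAMP, was near the limit of detection. It had 2 to 17 reads per library before scaling and group means of 4.14 ± 1.56 (VDD LF males) to 11.5 ± 3.48 (VDD HF females) normalized reads (SD, n = 3 each). It passed the filter in 3 of the 8 diet comparisons. There its differences were 0.46 (SE 0.42, HF minus LF, CTRL females), -0.59 (SE 0.58, VDD minus CTRL, HF males) and 0.15 (SE 0.42, VDD minus CTRL, HF females), with limma adjusted p-values of 0.507, 0.999 and 0.891. Before any filter, means on LF and HF were 6.30 and 11.4 in CTRL males, 4.14 and 8.51 in VDD males, 7.38 and 10.2 in CTRL females and 6.53 and 11.5 in VDD females. The HF mean was higher in each pair. Libraries did not overlap in CTRL males (at most 7.88 on LF, at least 8.96 on HF) or in VDD females (at most 8.78 and at least 8.82), gaps of about 1 read or less, and these pairs were not tested. Of the other alpha receptors Adra1a had a median of 247 normalized reads, Adra1d 87.2, Adra1b 17.4, Adra2c 7.64 and Adra2b 2.55. The highest Adra2b, 224, was in the kidney-rich library 2303.

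**Figure D3:**
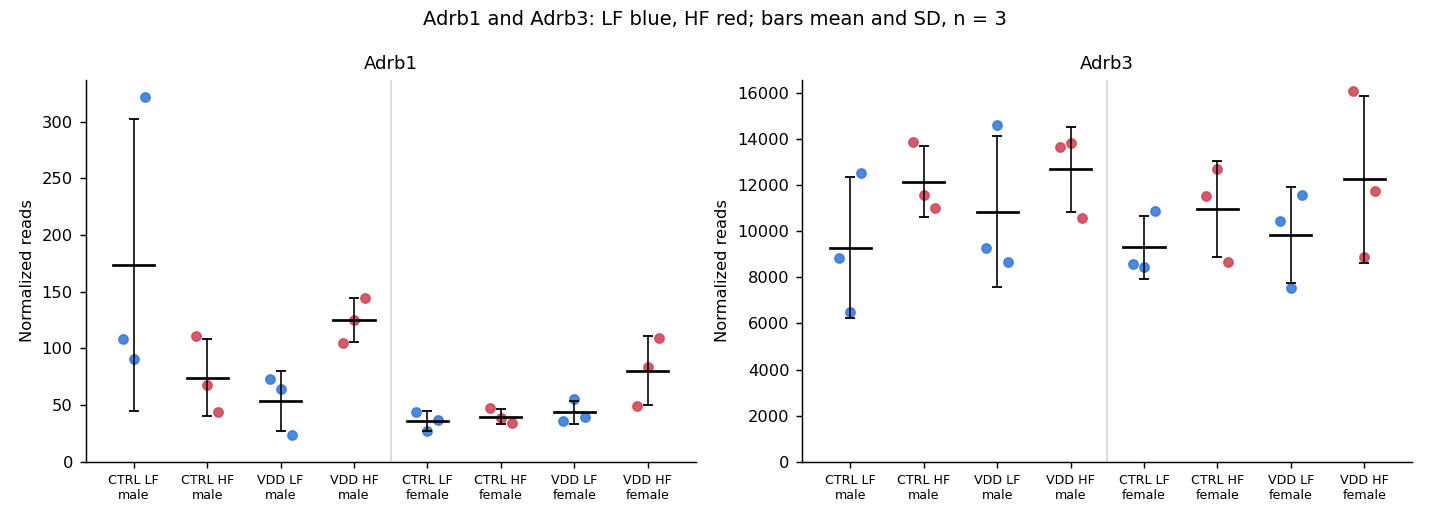
Normalized reads of Adrb1 and Adrb3 on the y axes for the 8 groups on the x axes, 1 point per mouse, LF in blue and HF in red, bars for mean and SD (n = 3). Adrb1 is highest in CTRL LF male 2296 (322), and each Adrb3 group overlaps the next in the order of means.

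Without the muscle-rich VDD LF male 2310, VDD minus CTRL in LF males was 0.12 for Npr1, 0.17 for Npr2, 0.39 for Adrb3 and 1.11 for Drd1. HF minus LF in VDD males was then 0.13 for Npr1, -0.19 for Npr2 and 0.11 for Adrb3. The male interaction term was 2.24 for Npr3, 1.92 for Adrb1 and -2.34 for Drd1. In both of these comparisons of diets the Npr2 difference thus turned sign without this library, and those of Npr3 and Drd1 kept theirs. Without the kidney-rich VDD LF female 2303, HF minus LF in VDD females was -0.02 for Npr2, 0.71 for Adrb1, 0.36 for Adrb3 and -0.77 for Drd1. VDD minus CTRL in LF females was -0.02 for Npr1, -0.54 for Npr2, 0.39 for Adrb1, 0.01 for Adrb3 and -0.68 for Drd1. The female interaction term was -0.58 for Npr3, 0.54 for Npr2, 0.55 for Adrb1 and 2.49 for Drd1. For Npr1 the difference between maternal diets in LF females was thus close to 0 without this library. The sex difference of Drd1 in VDD LF mice was -2.33 without 2303 and -2.24 without 2310.

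Counted over the members, Npr3 and Drd1 were called between VDD LF and VDD HF males, 2 of the 6 that passed the filter, beside 12 of 15965 genes (0.0752%). Since that comparison chose them, nothing is read from the count. With limma-voom 0 members and 0 of all genes were called. With 1 library left out the 2 members stayed called only without VDD LF male 2310, where 264 of 15550 genes were. Without any other library 0 members and 0 to 3 genes in all were called, while the differences stayed at 3.39 to 3.80 for Npr3 and -3.82 to -3.51 for Drd1. In the other 7 comparisons of diets limma called 0 members, and limma-voom 0. The share of all genes called was 0.0578% in CTRL LF vs. CTRL HF males and 0% in the remaining 6. At an unadjusted p under 0.05 there were 2 of 6 members in CTRL LF vs. CTRL HF males (18.8% of all genes), 3 of 7 in CTRL LF vs. CTRL HF females (28.8%) and 0 of 6 between the VDD female groups (5.05%). In VDD males, where the members have no p, 25.9% of all genes passed. The CTRL female count includes Drd1, which passed the filter there only through the LF mice. Between maternal diets Adrb1 was the 1 of 4 members given a p in LF males, lower with VDD (3.67% of genes lower, 3.12% higher). It was also the 1 of 5 in HF males, higher with VDD (3.18% higher, 2.12% lower). Npr2 was the 1 of 6 in LF females, lower (6.53% lower, 5.52% higher). In HF females Adrb1 was higher and Npr3 lower, 2 of 6 (7.60% higher, 9.10% lower).

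Members whose groups did not overlap numbered 3 of 6 in CTRL LF vs. CTRL HF males (24.7% of all genes tested), 4 of 6 between the VDD male groups (33.4%), 4 of 7 between the CTRL female groups (35.2%) and 0 of 6 between the VDD female groups (11.6%). Between maternal diets 3 of 6 did not overlap in LF males (13.4%) and 1 of 7 in HF males (10.3%). In LF females it was 1 of 6 (18.2%), and in HF females 2 of 6 (22.9%). Between sexes it was 2 of 6 in CTRL LF mice (24.7%), 2 of 7 in CTRL HF mice (25.0%), 1 of 6 in VDD LF mice (14.9%) and 2 of 7 in VDD HF mice (27.3%). Each count that uses VDD males includes Npr3, Drd1 or both. These genes were picked from those males, so nothing is read from such counts. At an adjusted p under 0.05 with the same folds Npr3 and Drd1 were called in CTRL LF vs. CTRL HF females, where 6.60% of all genes were, and no further member in CTRL males (1.17%). In VDD males 5.27% of genes passed it. Of the sex comparisons, Npr3 would then be called in CTRL LF mice (3.54% of genes) and Drd1 in CTRL HF mice (5.71%), beside 0.444% of genes in VDD LF and 2.31% in VDD HF mice. In the last of these Npr3 would pass too, with the males from which it was picked. In CTRL LF vs. CTRL HF females and between sexes in CTRL HF mice, Drd1 passed the filter only through the group with the higher values. Its lack of overlap and its calls there are thus no support. The 4 sex comparisons held 0 called members at 0.01 with limma and with limma-voom, beside 0.817% (CTRL LF), 0.956% (CTRL HF), 0.0750% (VDD LF) and 0.212% (VDD HF) of all genes. At an unadjusted p under 0.05 they held 2 of 6, 2 of 7, 0 of 4 and 0 of 5 members given a p, against 18.6%, 19.9%, 8.46% and 20.5% of genes. The 8 comparisons of diets use each group 2 times, so they are not independent of each other.

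**Figure D4:**
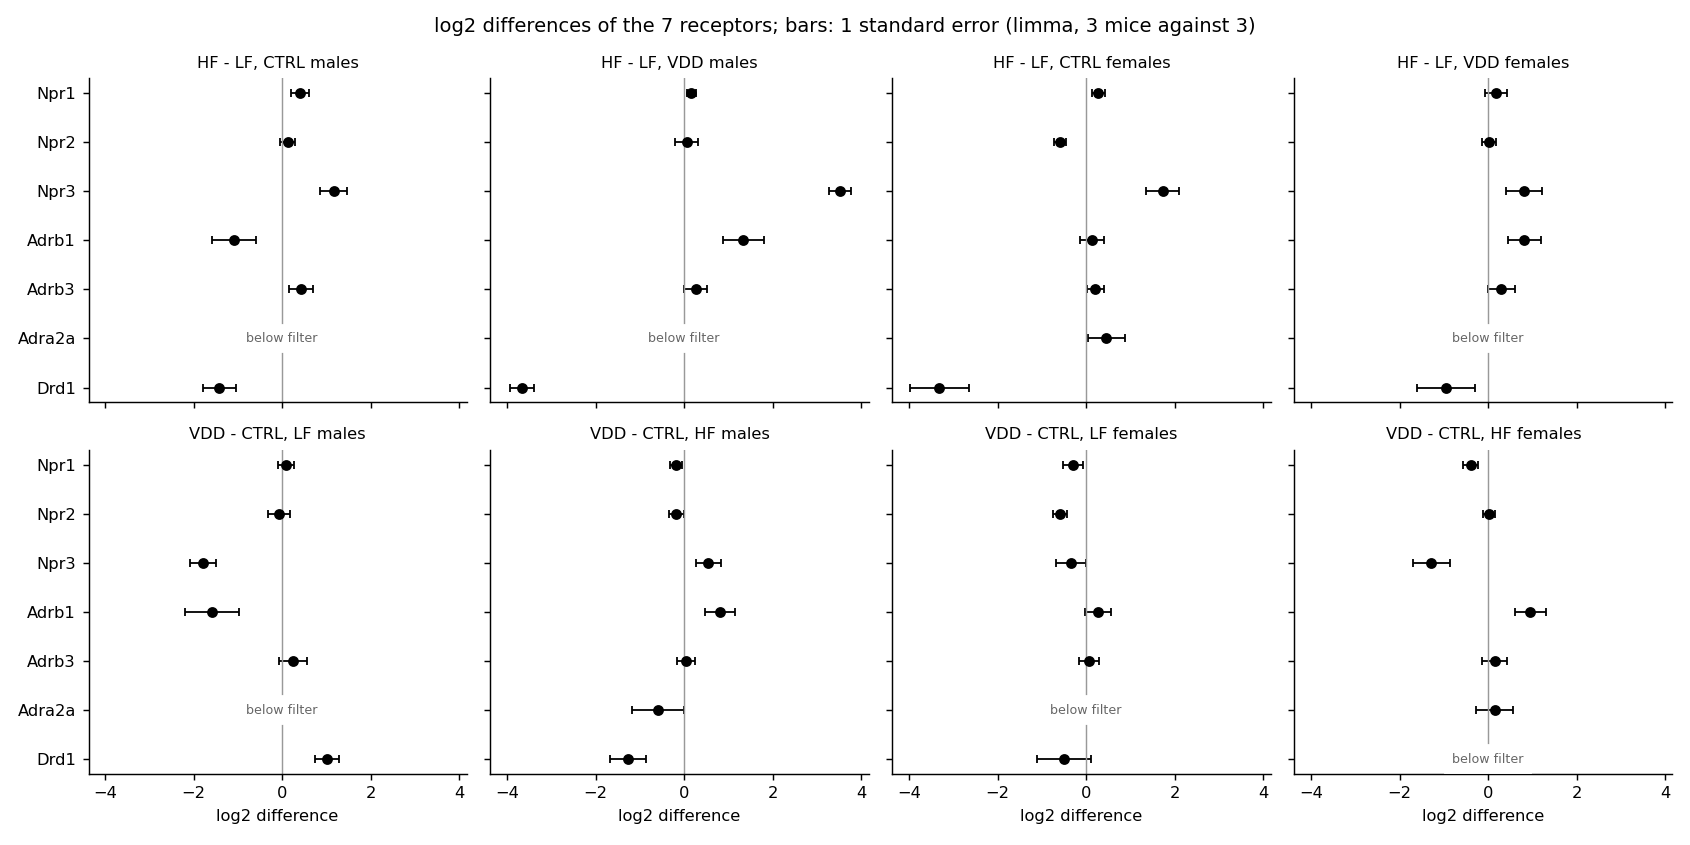
log2 differences of the 7 receptors (x axes) in the 4 HF minus LF and the 4 VDD minus CTRL comparisons, with bars of 1 standard error from limma (3 mice against 3); genes below the filter are marked. Npr3 and Drd1 lie on opposite sides of 0 in each HF minus LF panel, at 3.53 and -3.66 in VDD males, from which they were picked, and at 0.81 and -0.95 in VDD females.

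Further genes of these pathways were taken from lists chosen by function, and limma and limma-voom called 0 of them in all 8 comparisons of diets. Of 22 natriuretic peptide and cGMP genes, 13 passed the filter in CTRL males, 13 in VDD males, 14 in CTRL females and 11 in VDD females. HF minus LF, their median difference was 0.13 in CTRL males (all genes -0.02), 0.20 in VDD males (0.01), -0.28 in CTRL females (0.01) and -0.12 in VDD females (-0.01). Unadjusted p was under 0.05 for 2 higher and 1 lower in CTRL males, 0 and 2 in VDD males, 0 and 3 in CTRL females and 0 and 0 in VDD females. Over all genes, in either direction, 18.8%, 25.9%, 28.8% and 5.05% were under 0.05 in the same order. The same shares stand beside the counts of the other 3 lists below. Pde3b, the phosphodiesterase through which insulin lowers cAMP in fat cells, had the smallest p in 3 comparisons: -1.15 (SE 0.29, limma adjusted p = 0.0918) in CTRL males, -1.10 (SE 0.26, 0.0646) in VDD males and -1.16 (SE 0.22, 0.0322) in CTRL females. It was -0.63 (SE 0.36, limma adjusted p = 0.837) in VDD females. Next were Gucy1b1, a subunit of soluble guanylyl cyclase, at 0.82 (limma adjusted p = 0.173) in CTRL males, Furin, a protease, at -0.43 (0.108) in VDD males and Mme, the protease neprilysin that degrades natriuretic peptides, at -0.64 (0.0459) in CTRL females. In VDD females they were Pde5a, a cGMP phosphodiesterase, at -0.94 and Nos3, the endothelial nitric oxide synthase, at 0.40 (limma adjusted p = 0.837 for both). The ligand genes were close to silent, with Nppa at 0 in 21 libraries, Nppb in 23 and Nppc in 11, and at most 6.84 normalized reads (Nppc).

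Of 40 adrenergic and cAMP genes, 36 to 38 passed the filter in the 4 HF vs. LF comparisons, with medians of 0.02 in CTRL males, 0.14 in VDD males, -0.09 in CTRL females and 0.15 in VDD females. Unadjusted p was under 0.05 for 6 higher and 6 lower in CTRL males, 7 and 4 in VDD males, 3 and 6 in CTRL females and 4 and 0 in VDD females. Pde4d, a cAMP phosphodiesterase, had the smallest p in CTRL males at -0.97 (SE 0.24, limma adjusted p = 0.093) and in CTRL females at -1.30 (SE 0.17, limma adjusted p = 0.0189). Rgs2, a brake on G protein signalling, had it in VDD males at -3.13 (SE 0.46, limma adjusted p = 0.0238). The second genes were Prkar1b, a regulatory subunit of protein kinase A, at 1.01 (limma adjusted p = 0.114) in CTRL males and Adcy7, an adenylyl cyclase, at 0.61 (0.0406) in CTRL females. In VDD females they were Adcy3, another adenylyl cyclase, at 0.70 and Grk3, a receptor kinase, at 1.24 (limma adjusted p = 0.837 for both).

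Of 14 lipolysis effectors 12 or 13 passed the filter, with medians of -0.09 in CTRL males, 0.30 in VDD males, -0.55 in CTRL females and 0.01 in VDD females. Unadjusted p was under 0.05 for 1 higher and 2 lower in CTRL males, 2 and 1 in VDD males, 0 and 5 in CTRL females and 0 and 1 in VDD females. Abhd5, the activator of the lipase encoded by Pnpla2, was -1.01 (SE 0.21, limma adjusted p = 0.0553) in CTRL males, -1.26 (SE 0.13, 0.0137) in VDD males, -0.96 (SE 0.13, 0.0206) in CTRL females and -0.68 (SE 0.27, 0.837) in VDD females. Adora1, the adenosine receptor that restrains lipolysis, was -1.21 (SE 0.21, limma adjusted p = 0.0335) in CTRL males and -0.62 (SE 0.27, limma adjusted p = 0.837) in VDD females. Hcar1, the lactate receptor, was 1.51 (SE 0.28, limma adjusted p = 0.0392) in VDD males, and Pnpla2 -0.94 (SE 0.22, limma adjusted p = 0.045) in CTRL females.

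Of 20 genes of dopamine and catecholamine handling 6 to 8 passed the filter, with medians of -0.00 in CTRL males, 0.40 in VDD males, 0.22 in CTRL females and -0.12 in VDD females. Unadjusted p was under 0.05 for 0 higher and 1 lower in CTRL males, 3 and 1 in VDD males, 1 and 0 in CTRL females and 0 and 0 in VDD females. Sult1a1, a sulfotransferase, was -1.27 (SE 0.28, limma adjusted p = 0.0547) in VDD males and -0.84 (SE 0.20, limma adjusted p = 0.0775) in CTRL males. Slc18a2, the vesicular monoamine transporter, was -1.08 (SE 0.64, limma adjusted p = 0.396) in CTRL males and 2.91 (SE 1.20, limma adjusted p = 0.161) in CTRL females. Maoa, which oxidises catecholamines, was 0.22 (limma adjusted p = 0.245) in CTRL females and -0.35 (0.837) in VDD females, and Slc22a3, a monoamine carrier, 0.25 (0.837) in VDD females. The genes that make catecholamines were at most 10.8 (Th), 3.99 (Dbh) and 10.5 (Pnmt) normalized reads, with 0 in 17, 17 and 14 libraries.

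Between maternal diets the natriuretic list had medians of -0.15 (LF males), -0.29 (HF males), -0.27 (LF females) and -0.18 (HF females). Unadjusted p was under 0.05 for 0 and 0, 0 and 0, 0 and 4, and 1 and 4 of its genes (higher and lower, VDD minus CTRL). The adrenergic list had medians of -0.01, 0.07, -0.15 and -0.01 in the same order, and 3 and 3, 3 and 1, 2 and 6, and 2 and 1 genes. The lipolysis list had -0.44, -0.11, -0.04 and 0.51, with 0 and 2, 0 and 0, 2 and 1, and 3 and 0. The dopamine list had -0.83, -0.07, 0.39 and -0.32, with 0 and 4, 0 and 0, 2 and 2, and 2 and 1. In the same order the genes tested were 12, 13, 12 and 14 (natriuretic) and 37, 37, 38 and 38 (adrenergic). They were 12, 12, 13 and 13 for lipolysis and 7, 8, 9 and 8 for dopamine. Over all genes 3.12% were higher and 3.67% lower in LF males, and 3.18% and 2.12% in HF males. The shares were 5.52% and 6.53% in LF females and 7.60% and 9.10% in HF females. The median over all genes was between 0.00 and 0.01 in these comparisons.

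Over the 24 libraries, which share groups and diets, the genes whose log2 levels were most like Npr3 among 18399 genes were Edem1 (Pearson r = 0.96), Palmd (0.95) and Ppic (0.95). For Drd1 they were Ell (0.92), XLOC_025395 (0.90), a locus added by the authors' assembly, and Lpin1 (0.90), and for Npr2 Piezo1 (0.90), Shank3 (0.88) and Rgp1 (0.87). Npr1 was most like Zfp319 (0.86), Dhx57 (0.85) and Tmem181b-ps (0.85). Adrb3 was like A330009N23Rik (0.80) and Cxcl1 (0.72), Adra2a like Smarcd1 (0.80), Exoc3l (0.78) and Dcaf15 (0.77), and Adrb1 like Hoxa10 (0.74), XLOC_023942 (0.73) and Gm47425 (0.72). Among the members the correlation of log2 levels was -0.47 for Npr3 with Drd1, 0.42 for Npr3 with Adrb1, 0.36 for Npr3 with Npr1 and 0.22 for Npr3 with Npr2. All of these are descriptions over samples of 8 groups.

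Genes on the opposite strand overlap 4 of the receptors: Gm16048 (Npr1, 5513 bases), Gm12473 (Npr2, 9599), Gm5144 (Npr3, 769) and Gm45470 (Adrb3, 11647). The sources used here do not say whether counting used strand, so shared reads may be split or lost. Gm16048 had group means of at most 4.26 normalized reads, Gm12473 of at most 0.958 and Gm45470 of at most 131, each far below its receptor. Gm5144, which GENCODE annotates as a bidirectional promoter transcript and which was singled out after its values were seen, had 12.7 ± 3.25 normalized reads in VDD LF and 75.5 ± 18.1 in VDD HF males (SD, n = 3 each). It had 39.5 ± 14.1 in CTRL LF and 75.7 ± 31.3 in CTRL HF males, and 25.2 ± 9.96 in CTRL LF and 52.3 ± 16.2 in CTRL HF females. Its 42.3 ± 29.0 in VDD LF and 41.4 ± 16.8 in VDD HF females were alike in mean (n = 3 each).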

How the data were processed

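RNA-seq (TruSeq stranded mRNA, paired-end, NextSeq) was done by the authors on retroperitoneal fat of 24 mice, 3 in each of 8 groups. After trimming with Sickle, the authors used STAR (2.7.0d) for alignment, keeping reads with a unique position, added transcripts from Cufflinks (2.2.1) to GENCODE, counted with featureCounts (1.6.1) and scaled with DESeq2. The build, mm10, is from the submitters' processing notes. The authors deposited 8 tables of log2(normalized reads + 1), each with 6 libraries and 56899 entries, of which 4 with duplicated names were left out. The tables also hold the authors' own fold changes and p-values, which were not used. Undoing the log2 and the size factor gave whole reads for 100% of values within 0.02.

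Each table was fitted with limma 3.58.1 (R 4.3.3, empirical Bayes with trend) after a filter on low values (10 or more normalized reads in 3 or more of its libraries), without covariates. Sex comparisons and interaction terms used the recovered reads on a common scale (median of ratios over 24 libraries), which moved a difference by at most 0.02. Calls needed an adjusted p (Benjamini-Hochberg) below 0.01 with a fold above 1.5 or below 0.66. Alternatives were a pseudocount of 10, no filter, the trimmed mean of M-values (TMM), limma-voom, an adjusted p under 0.05, 12 libraries in 1 fit, a muscle covariate, leaving out renal-named libraries, and leaving out each library. Exon lengths are from GENCODE M21, whereas the authors name the older release vM1 for their annotation, so values per kb are approximate. Python 3.11.15 with pandas 2.3.3 and matplotlib 3.10.9 made the tables and plots.

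The members and lists were chosen with earlier results of these data known. P-values of the members are therefore no independent support, and none is given for Npr3 and Drd1 where VDD males enter. Named besides the members were, of each pathway list, the 2 genes with the smallest p in each HF vs. LF comparison, the 3 genes most correlated with each member and the highest gene of each marker list. Other receptors and ligands were added as relatives. A few genes that these rules name, and the results that rest on them, are not reported here. P-values set each difference against the spread between these mice and take no account of litters, which the sources used here do not name.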

Additional observations from a re-analysis of the deposited data

Results flagged for a closer look

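Drd1 differed between maternal diets in opposite directions in LF and HF males. VDD minus CTRL, it was 1.02 on LF, with all 3 VDD mice above all 3 CTRL mice, and -1.27 on HF, with all 3 VDD mice below. The difference between these effects was not tested, because the VDD males were the mice from which Drd1 was picked. The groups hold 3 mice each, too few for the test of a single far value used in larger groups.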

How the results depend on the processing

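The count of 2 called members in VDD LF vs. VDD HF males was 0 with limma-voom (0 of all genes called). It was also 0 with the muscle covariate (1) and without the libraries named renal (0), and 0 to 2 when each library was left out in turn (0 to 264 genes). Where it fell to 0, calls over all genes also fell, from 12. Other settings called more genes, 47 of 15965 with a pseudocount of 10, 37 of 30240 without a filter and 614 of 16925 with 12 libraries in 1 fit. The differences of Npr3 (3.39 to 3.80) and Drd1 (-3.82 to -3.51) moved little with each library left out. Npr3 was 3.87 without the libraries named renal, and Drd1 -2.97 with a pseudocount of 10. With an adjusted p under 0.05 the counts became 2 in CTRL LF vs. CTRL HF females, 1 in CTRL LF, 1 in CTRL HF and 1 in VDD HF males vs. females, and without a filter 1 in the last of these. Drd1, called in the comparisons that hold CTRL HF females, passed the filter there only through the other group. Adrb3 turned to -0.16 with the muscle covariate and to -0.10 without the libraries named renal in CTRL HF vs. VDD HF males, and to -0.11 without the latter in CTRL LF vs. VDD LF females. The cause was not tested. Of 96 differences, 31 changed sign when a library was left out, none over 0.64 in size. In CTRL LF female vs. CTRL HF female these were Adrb1 -0.05 to 0.30. In VDD LF female vs. VDD HF female these were Npr1 -0.08 to 0.40 and Npr2 -0.05 to 0.16. In VDD LF male vs. VDD HF male Npr2 ran from -0.19 to 0.25. In CTRL LF male vs. VDD LF male these were Npr1 -0.07 to 0.18 and Npr2 -0.26 to 0.17. In CTRL HF male vs. VDD HF male these were Adrb3 -0.03 to 0.17 and Adra2a -1.01 to 0.01. In CTRL LF female vs. VDD LF female these were Adrb3 -0.05 to 0.25 and Drd1 -1.16 to 0.05. In CTRL HF female vs. VDD HF female these were Npr2 -0.06 to 0.09, Adrb3 -0.07 to 0.36 and Adra2a -0.07 to 0.31. In CTRL LF male vs. CTRL LF female these were Npr1 -0.06 to 0.19, Adrb3 -0.19 to 0.28 and Drd1 -1.19 to 0.02. In CTRL HF male vs. CTRL HF female these were Npr1 -0.15 to 0.10 and Adrb3 -0.27 to 0.00. In VDD LF male vs. VDD LF female these were Npr3 -0.28 to 0.36, Adrb1 -0.67 to 0.13 and Adrb3 -0.27 to 0.11. In VDD HF male vs. VDD HF female these were Adrb3 -0.30 to 0.13 and Adra2a -0.01 to 0.75. For the maternal by offspring diet term in females these were Npr1 -0.38 to 0.10, Adrb3 -0.15 to 0.28 and Adra2a -0.02 to 0.51. For that term in males these were Npr2 -0.32 to 0.11 and Adrb3 -0.42 to 0.06. For the sex by offspring diet term in CTRL mice these were Npr1 -0.25 to 0.06, Adrb3 -0.44 to 0.03 and Adra2a -0.51 to 0.00. TMM over 24 libraries moved no range of group means by more than the spread between mice, but the lowest Npr2 group became CTRL HF females and the highest Adra2a group CTRL HF males. No paired analysis was possible, since each group holds different mice and the sources used here do not name litters. The columns carry mouse numbers and not the titles' replicate numbers, so they were matched to groups only. Adra2a and, in CTRL HF females, Drd1 are limited by depth.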
